A study of Mus musculus with 6 samples.

Results

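The 35 genes described here are the transcription factor p53 (Trp53), proteins that control it, and genes listed as its standard targets. Whether p53 activates each of these targets in these mouse cells was not tested. The set was chosen by gene name, with earlier results of these data known, and genes of the BCL2 family were left out except Bbc3. Shares of members set beside those of all genes are therefore descriptions and not tests. All 35 were found among the 25865 genes of the table, and all 35 were among the 16223 genes with a mean normalised read count of at least 1, the minimum for testing. RNA sequencing had been done on group 2 innate lymphoid cells (ILC2s), tissue-resident lymphocytes that make type 2 cytokines, sorted from the large intestine of C57BL/6 mice. Both groups grew for 5 days in complete IMDM with 10 ng/mL of each of IL-33, IL-25, IL-7 and IL-2. The 3 toyocamycin samples then had 16 h with toyocamycin, an adenosine analogue known to block the maturation of ribosomal RNA and the RNase of the stress sensor IRE1, and the 3 Control samples had vehicle. The dose, the age of the mice and whether the replicates came from separate cultures or animals are not given in the labels. P-values therefore measure only how far these samples differ from each other, and that spread can be technical.

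p53 is held at a low level by the ubiquitin ligase MDM2 and its partner MDM4. When DNA is damaged or when ribosome assembly fails, free ribosomal proteins or stress kinases release p53 from MDM2. p53 then activates genes that stop the cell cycle, repair DNA, limit growth signalling or start apoptosis, and among them Mdm2 itself, which closes a feedback loop. In lymphocytes p53 is best known for removing cells with damaged DNA. Because p53 is controlled mainly through the stability of the protein, transcript levels do not report its activity directly, and no protein was measured here.

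The 6 libraries held 22303455 to 36742639 reads assigned to genes. A normalised read count is the reads of a gene divided by 1 factor per sample and is not divided by gene length, so levels of different genes are compared only per kilobase of exon. Higher and lower are relative to the other genes of a sample, and a change in total RNA per cell cannot be read from these values. The ILC2 label was checked against 13 markers, all of which had reads in every sample. They summed to 563179 to 576517 in Control and 473159.8 to 512242 with toyocamycin, and 5 were higher, 7 lower and 1 (Thy1) not called. By log2 change, Gata3 (1.01) and Rora (3.71) were among the higher ones, and Il7r (−1.58), Il2ra (−1.57), Klrg1 (−1.27) and Il13 (−2.80) among the lower ones. The 10 T cell markers together summed to 322 to 370.4 in Control and 414 to 488 with toyocamycin, ranges that did not overlap. By log2 change, 3 were higher, Cd3g (0.41), Trac (1.08) and Trbc2 (0.58), and 2 were lower, Cd3e (−2.44) and Cd3d (−2.17). Cd3e did not exceed 36.0 in any sample, and Cd3g reached 230 with toyocamycin. The 7 epithelial markers summed to 208 to 285 in Control and 218 to 249 with toyocamycin; 6 of them were tested, none was called, and Krt20 was at 0 in every sample. The 8 macrophage and dendritic cell markers summed to 484 to 869 and 407 to 886, mostly Lyz2, and none was called. Fibroblast and endothelial markers summed to 1271 to 1468 and 712 to 935 (2 of 6 lower), B and plasma cell markers to 365 to 469.6 and 187 to 221 (1 of 5 lower), and mast cell markers to 5.27 to 14.5 and 0 to 7.92 (1 of 5 lower). Of 9 markers of ILC3s, ILC1s and NK cells, 1 was higher and 3 were lower, and Gzmb held nearly all of their reads. The part of such cells in the changes below was not tested. In a bulk sample, fewer cells of a type and less RNA per cell cannot be told apart.

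p53 binds DNA as a tetramer at a pair of half-sites of 10 bases with a common consensus. That consensus was searched on both strands in RefSeq promoter windows (GRCm38.p6, 250 bases before to 50 after an annotated start), which were given for 29 of the 35 genes. A half-site lay in a window of 12 of these 29 genes (41.4%), against 9.55% of all 27025 genes in the promoter table. Among the 12183 genes with a window that were tested, the share was 8.495%. The members were picked for their known ties to p53, so this share describes how they were chosen. A pair of half-sites at most 13 bases apart lay in 1 of the 29 (Cdkn1a) and in 20 of all the genes (0.074%). Only exact matches to the consensus were counted, so near matches beside a half-site, as in Cdkn1a, were left out. The other Cdkn1a window (chr17:29093519-29093818) held no half-site. A match of letters is a description of the window and not evidence that p53 bound there. The sequences below are shown because they place the motif beside genes that rose, 1 gene that fell (Pml) and 1 that was not called (Aen). Each reads 5′ to 3′ on the strand of its gene, with half-site matches in capitals.
Cdkn1a (chr17:29090729-29091028, plus strand): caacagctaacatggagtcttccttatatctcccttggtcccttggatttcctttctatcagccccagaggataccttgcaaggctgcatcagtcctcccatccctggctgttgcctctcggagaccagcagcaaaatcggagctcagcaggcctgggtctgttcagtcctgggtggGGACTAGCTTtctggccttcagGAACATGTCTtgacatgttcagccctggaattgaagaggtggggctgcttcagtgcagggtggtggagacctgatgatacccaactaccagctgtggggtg
Mdm2 (chr10:117710910-117710969, minus strand): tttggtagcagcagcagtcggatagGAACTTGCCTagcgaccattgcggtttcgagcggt
Ccng1 (chr11:40755437-40755496, minus strand): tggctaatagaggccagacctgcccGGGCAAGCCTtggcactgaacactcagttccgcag
Ppm1d (chr11:85311097-85311156, plus strand): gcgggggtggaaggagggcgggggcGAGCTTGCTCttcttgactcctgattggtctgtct
Sesn1 (chr10:41887241-41887300, plus strand): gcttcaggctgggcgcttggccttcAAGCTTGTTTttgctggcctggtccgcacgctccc
Gtse1 (chr15:85859930-85859989, plus strand): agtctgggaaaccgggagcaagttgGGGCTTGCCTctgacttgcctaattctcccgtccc
Ei24 (chr9:36797310-36797369, minus strand): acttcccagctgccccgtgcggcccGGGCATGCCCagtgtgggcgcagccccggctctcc
Trp53 (chr11:69580259-69580318, plus strand): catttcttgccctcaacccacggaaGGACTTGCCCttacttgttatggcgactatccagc
Pml (chr9:58249896-58249955, minus strand): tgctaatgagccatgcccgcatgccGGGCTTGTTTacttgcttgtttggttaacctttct
Aen (chr7:78895912-78895971, plus strand): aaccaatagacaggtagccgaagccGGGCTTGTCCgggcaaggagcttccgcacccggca
Of the 12 genes with a half-site in a window, 9 were higher with toyocamycin, 1 was lower and 2 were not called. Of the 17 without one, 8 were higher, 6 lower and 3 not called, and no test was made of that difference. Sequence outside the windows was not searched, so these 17 genes can have a site elsewhere. Over all genes tested, 32.8% were higher and 33.1% lower, and calls of all genes with a half-site were not counted. Zmat3, Perp, Trp53inp1, Rrm2b, Xpc and Ddb2 had no window in the table.

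Relative to the other genes of a sample, toyocamycin-treated ILC2s had more transcript of p53 and of its inhibitors MDM2, MDM4 and WIP1. The same held for 5 of 7 cell cycle genes and 6 of 11 cell death genes. On the same scale these cells had less of Pml, Plk3, Pidd1, Trp53inp2, Dcxr, Rrm2b and Ddb2. Fas and Apaf1 were slightly lower, and their calls were lost in some alternatives. Adjusted p-values are from limma across all 16223 genes, two-sided, and a gene is called at an adjusted p under 0.05. Of the 35 genes, 20 were called higher (57.1%) and 9 lower (25.7%). Over all genes tested, 32.8% were higher and 33.1% lower, 65.9% in all, against 29 of 35 here (82.9%). At least 2-fold changes were present in 11 members higher (31.4%, against 17.0% of all genes) and in 4 lower (11.4%, against 20.5%). With the samples set to equal totals the 2-fold counts were 6 higher and 7 lower, against 10.9% and 27.3% of all genes. After GC and length correction they were 14 and 5, against 17.8% and 17.9%. The values of both groups did not overlap in 29 members, or 82.9%, against 69.1% of all genes. The median log2 change of the members was 0.59, with quartiles of −0.26 and 1.08, and that of all genes was −0.03, with quartiles of −0.94 and 0.81. The share of all calls that were higher was 49.7%, and 36.9% with equal totals, where the median of all genes moved by −0.32 and that of the members was 0.24.

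**Figure D1:**
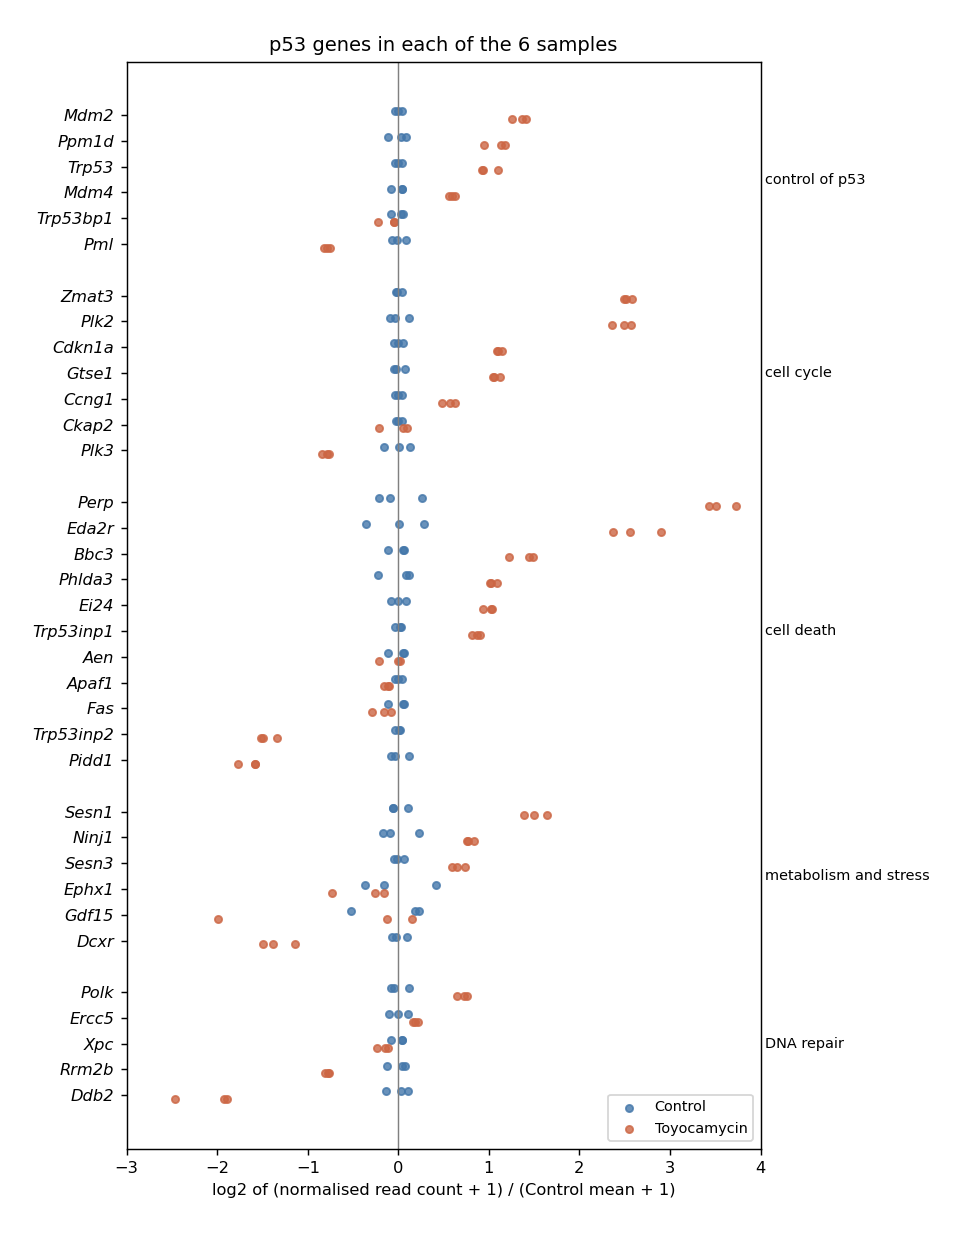
Normalised read counts of the 35 p53 genes in each sample, as the log2 of the value + 1 over the Control mean + 1 (x axis), for 3 Control samples (blue) and 3 toyocamycin samples (orange), grouped by role. Toyocamycin points stand clear of the Control points in 29 genes, to the right for Perp, Eda2r, Zmat3 and Plk2 and to the left for Ddb2, Pidd1, Trp53inp2 and Dcxr.

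Among p53 and its controllers, 4 of 6 genes were higher, 1 was lower and 1 was not called (median log2 change 0.79). Beside these stand 32.8% higher and 33.1% lower of all genes tested. Trp53 (chromosome 11, 69580348 to 69591873) had normalised read counts of 3365, 3434 and 3529 in Control and 6569, 7372 and 6541 with toyocamycin, a rise of 1.98-fold (log2 change 0.99, SE 0.056, adjusted p = 1.2e-12). Its lowest toyocamycin sample lay well above its highest Control sample. The annotation names a pseudogene of Trp53 and one of Mdm4, and reads that fit both copies could have been assigned to either or lost. Mdm2 (chromosome 10, 117688875 to 117710758), the ligase that marks p53 for destruction and is itself a p53 target, had 3750.2, 3855 and 3979 in Control and 9944, 10225 and 9235 with toyocamycin. It rose 2.54-fold (log2 change 1.34, SE 0.053, adjusted p = 2.78e-15). Mdm4, the MDM2 partner that covers the activation domain of p53, had 2837, 2830.4 and 2616 in Control and 4061, 4245 and 4174 with toyocamycin. It rose 1.51-fold (log2 change 0.59, SE 0.055, adjusted p = 4.03e-09). Ppm1d, which encodes the phosphatase WIP1 that resets p53 and its kinases, had 888, 777 and 854 in Control and 1838, 1895 and 1614 with toyocamycin. It rose 2.12-fold (log2 change 1.08, SE 0.077, adjusted p = 5.3e-11). All 3 negative regulators thus had separate ranges in both groups and were higher. Pml, which builds the nuclear bodies in which p53 is modified, had 2769.8 ± 147 in Control and 1604 ± 39.5 with toyocamycin (mean ± SD of normalised read counts, n = 3 per group, as for all values in this form), with a log2 change of −0.79 (adjusted p = 1.94e-10). Trp53bp1, a DNA break sensor first found as a p53 binding protein, was not called (log2 change −0.11, 95% interval −0.24 to 0.03, adjusted p = 0.153). It was called lower with equal totals (−0.46), quantile normalization (−0.46), GC and length correction (−0.22) and edgeR (−0.16). Tubgcp4 lies on the opposite strand, shares 22.1% of the exon bases of Trp53bp1 and was lower (−0.76). The labels do not say whether counting used strand. Opposite-strand genes also share 10.0% of the exon bases of Cdkn1a, 5.70% of Rrm2b, 3.53% of Plk3, 2.55% of Ei24 and 2.04% of Pml.

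Of the 7 genes of the cell cycle group, 5 were higher, 1 was lower and 1 was not called (median log2 change 1.08). The shares of all genes tested were 32.8% higher and 33.1% lower. Cdkn1a (chromosome 17, 29090979 to 29100722) encodes p21, the inhibitor of cyclin-dependent kinases through which p53 stops the cycle. It had normalised read counts of 3448, 3561 and 3679 in Control and 7625, 7868 and 7565 with toyocamycin, and rose 2.16-fold (log2 change 1.11, SE 0.051, adjusted p = 3.19e-14). Zmat3 (chromosome 3, 32334792 to 32365665), an RNA-binding protein that acts in p53-dependent growth suppression, had 2222, 2252 and 2336 in Control and 13000.2, 13636 and 12760.1 with toyocamycin. That rise of 5.79-fold had the smallest adjusted p of the 35 (log2 change 2.53, SE 0.051, adjusted p = 3.32e-19), with the samples of each group close together. Gtse1, a microtubule protein of G2 that moves p53 out of the nucleus, had 2229.8, 2187 and 2372 in Control and 4657, 4943 and 4726 with toyocamycin. It rose 2.11-fold (log2 change 1.08, SE 0.055, adjusted p = 2.29e-13). Ccng1, a cyclin that directs a phosphatase to MDM2, had 9286 ± 236 in Control and 13697 ± 684 with toyocamycin, with a log2 change of 0.56 (adjusted p = 2.82e-09). Ckap2, a spindle protein of dividing cells, had 1061 ± 25.6 in Control and 1047 ± 119 with toyocamycin and was not called (log2 change −0.03, 95% interval −0.20 to 0.15, adjusted p = 0.804). It was called lower with equal totals (−0.37), and the sign turned without toyocamycin replicate 1 (0.07).

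Both polo-like kinases of the set, which act in stress checkpoints, are described with the paralog pairs below. The 24 cell cycle genes that p53 is known to repress through p21 and the DREAM complex formed a list beside the members. Of these, 23 were lower and 1 (Aurka) was not called, with a median log2 change of −1.37. Over all genes tested, 33.1% were lower and the median was −0.03. Whether p53 had a part in the change of this list was not tested. The list's 3 changes of greatest size were those of E2f1 (−2.57), Mcm2 (−2.40) and Top2a (−2.35). After correction for GC content and length 22 were lower and 1 was higher. Gtse1, which like many of these genes is expressed most in dividing cells, had the opposite direction to the list in these samples.

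Of the 11 cell death genes, 6 were higher, 4 lower and 1 was not called (median log2 change 0.86). Among all genes tested 32.8% were higher and 33.1% lower. Perp (chromosome 10, 18845071 to 18857073), a membrane protein of p53-dependent apoptosis and of desmosomes, had normalised read counts of 29.0, 31.6 and 40.4 in Control and 392, 459.9 and 372 with toyocamycin. It rose 12.1-fold (log2 change 3.57, SE 0.2, adjusted p = 1.31e-12), the largest change of the 35 and the 89th most positive of 16223 genes. Whether other cell types had a part in the Perp change was not tested. Eda2r (chromosome X, 97333837 to 97377234), a receptor for an ectodysplasin isoform, had 58.0, 44.8 and 70.2 in Control and 302, 437 and 344 with toyocamycin. It rose 6.26-fold (log2 change 2.63, SE 0.2, adjusted p = 1.92e-10), and its Control samples were low in absolute terms. Bbc3 (chromosome 7, 16308398 to 16318334) encodes PUMA, which binds BCL2 proteins to start apoptosis, and had 760.2, 860.1 and 855 in Control and 2238, 2313 and 1931 with toyocamycin. It rose 2.62-fold (log2 change 1.39, SE 0.078, adjusted p = 9.68e-13). Phlda3, which keeps the survival kinase AKT from the membrane, had 629, 778 and 795 in Control and 1565, 1480.4 and 1492 with toyocamycin. It rose 2.06-fold (log2 change 1.05, SE 0.085, adjusted p = 4.32e-10). Ei24, a protein of the endoplasmic reticulum with roles in autophagy and cell death, had 1959 ± 109 in Control and 3906 ± 149.7 with toyocamycin, with a log2 change of 1.00 (adjusted p = 2.52e-12), just under the limit for a 2-fold change.

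The other 4 genes of cell death described here (Pidd1, Apaf1, Fas and Aen) were lower or not called. Pidd1 (chromosome 7, 141438113 to 141447565), the death domain protein that assembles the caspase-2 platform, had normalised read counts of 1259, 1446 and 1296 in Control and 444, 445 and 389 with toyocamycin. It fell 3.13-fold (log2 change −1.64, SE 0.087, adjusted p = 3.76e-13), with every toyocamycin sample far below every Control sample. Apaf1, the core of the apoptosome, had 7089 ± 199.5 in Control and 6497 ± 135 with toyocamycin, a log2 change of −0.13 (adjusted p = 0.0306). The Apaf1 call was lost when Control replicate 1 (−0.13), Control replicate 2 (−0.11) or toyocamycin replicate 1 (−0.11) was left out. Fas, the death receptor, had 1287 ± 89.0 in Control and 1139 ± 84.8 with toyocamycin, with overlapping samples and a log2 change of −0.18 (adjusted p = 0.0482). That call ended in 8 of the alternatives, among them DESeq2 (−0.17) and the fits that left out the second (−0.15) or the third Control sample (−0.14), or the second (−0.18) or the third toyocamycin sample (−0.12). Aen, a nuclease induced by p53, was not called (1208 ± 78.4 in Control and 1154 ± 98.6 with toyocamycin, log2 change −0.07, 95% interval −0.23 to 0.10, adjusted p = 0.473), although it was called lower with equal totals (−0.42).

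**Figure D2:**
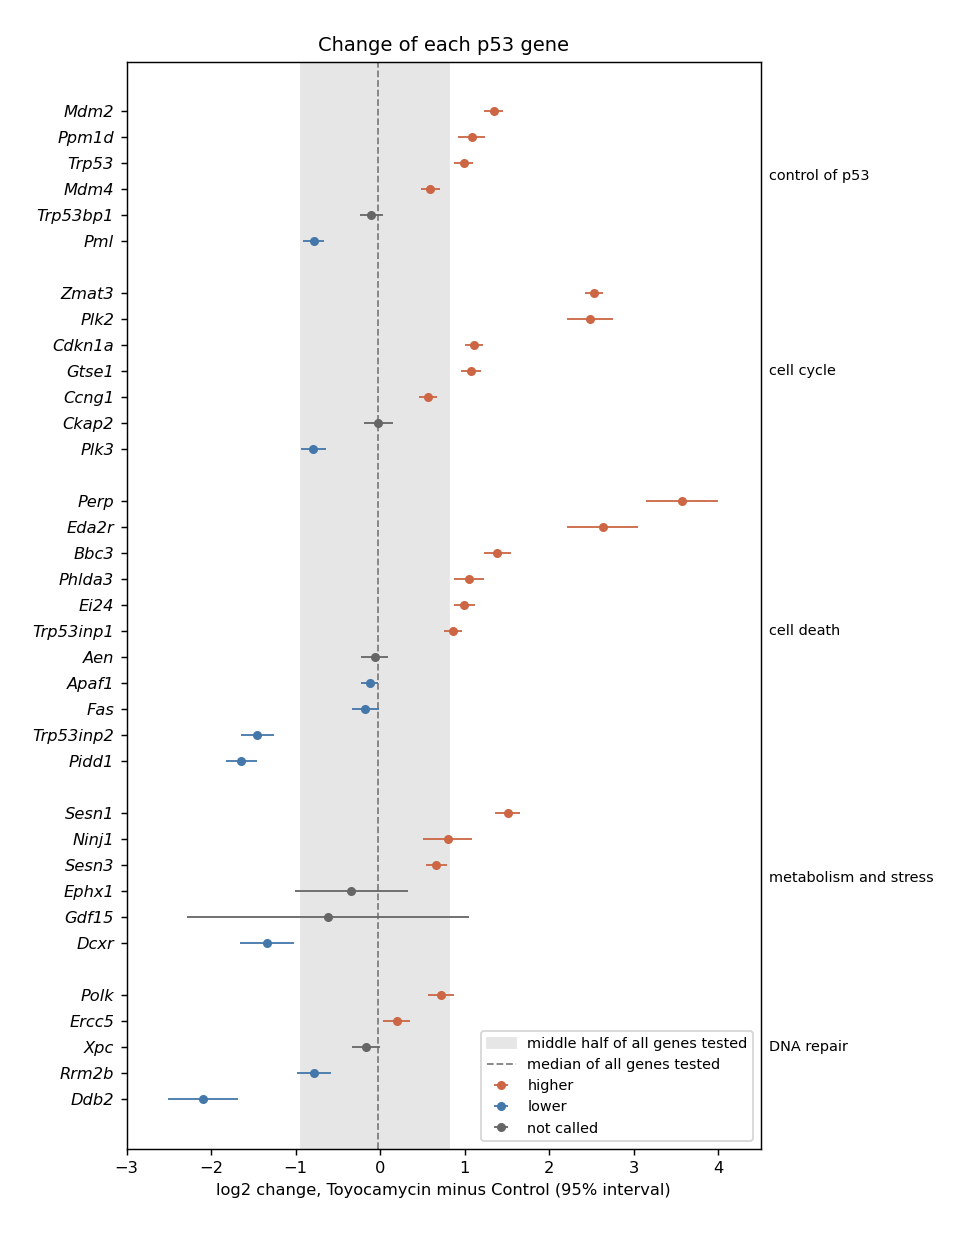
Log2 change of each p53 gene with its 95% interval (x axis), grouped by role, coloured by call, over the range of all genes tested (grey band, between the quartiles, −0.94 to 0.81; dashed line, median −0.03). Perp (3.57) and Ddb2 (−2.09) are the ends of the set, and the wide interval of Gdf15 rests on a few reads.

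The 6 genes of metabolism and stress were divided: 3 were higher, 1 lower and 2 not called (median log2 change 0.16). For all genes tested the shares were 32.8% higher and 33.1% lower. Sesn1 and Sesn3, sestrins that hold back the growth kinase mTORC1, both rose and are compared below. Ninj1, a membrane protein that ruptures dying cells, had 199.9 ± 30.5 in Control and 346 ± 9.22 with toyocamycin, a log2 change of 0.80 (adjusted p = 2.69e-05). Dcxr (chromosome 11, 120724546 to 120727284), a reductase of sugars and dicarbonyls, had normalised read counts of 309.9, 302 and 337 in Control and 120.2, 112 and 143 with toyocamycin. It fell 2.53-fold (log2 change −1.34, SE 0.15, adjusted p = 1.05e-07). Ephx1, an epoxide hydrolase, had 57.0 ± 16.9 in Control and 44.1 ± 9.05 with toyocamycin and was not called (log2 change −0.34, 95% interval −1.01 to 0.32, adjusted p = 0.365). Gdf15, a secreted stress cytokine and a widely used p53 readout in other tissues, had 4, 4 and 2 reads in Control and 2, 4 and 0 with toyocamycin. These counts lie at or near the floor of 3 reads, and a change was not detectable at this depth (adjusted p = 0.523).

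Among the 5 DNA repair genes, 2 were higher, 2 lower and 1 was not called (median log2 change −0.17). Of all genes tested, 32.8% were higher and 33.1% lower. Ddb2 (chromosome 2, 91211545 to 91237132), which finds ultraviolet lesions for nucleotide excision repair, had normalised read counts of 285, 301 and 254 in Control and 72.6, 74.5 and 49.8 with toyocamycin. It fell 4.26-fold (log2 change −2.09, SE 0.2, adjusted p = 5.23e-09), the most negative change of the set. Acp2 lies on the opposite strand and shares 26.7% of the exon bases of Ddb2. Acp2 was lower too, with 698 ± 22.2 in Control and 159 ± 16.0 with toyocamycin (log2 change −2.13), so reads of the shared stretch cannot be told apart where strand was not used. Rrm2b, the p53-controlled subunit of ribonucleotide reductase that supplies nucleotides outside S phase, had 673 ± 50.1 in Control and 390.1 ± 6.73 with toyocamycin, with a log2 change of −0.78 (adjusted p = 2.63e-07). Xpc, the lesion sensor that works with DDB2, had 907 ± 41.5 in Control and 808 ± 35.4 with toyocamycin and just missed the call (log2 change −0.17, adjusted p = 0.0664). It was called lower with equal totals (−0.52), edgeR (−0.22) and without Control replicate 1 (−0.21), and had the opposite sign after GC and length correction (0.16). Polk, a polymerase that copies past damaged bases, had 981 ± 76.7 in Control and 1611 ± 61.3 with toyocamycin, with a log2 change of 0.72 (adjusted p = 1.49e-08). Ercc5, the nuclease that cuts 3′ of a lesion, had 889.8 ± 64.2 in Control and 1016 ± 20.9 with toyocamycin (log2 change 0.19, adjusted p = 0.0315). Its sign turned with equal totals (−0.16). Its call was lost with edgeR (0.14) and on leaving out the first (0.19) or the third Control sample (0.14), or the first (0.20) or the second toyocamycin sample (0.18).

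The set holds 4 pairs of related genes, and within each the ratio of the 2 genes had separate ranges in Control and with toyocamycin. The log2 ratio of both normalised read counts was taken in each sample and compared by an exact permutation test, two-sided, adjusted over the 4 pairs; 3 samples against 3 cannot give a p below 0.1, and each of the 4 tests gave 0.1, so none could pass 0.05. Plk2 (chromosome 13, 110395044 to 110400844), a kinase induced by stress, had normalised read counts of 109, 122 and 105 in Control and 579.8, 672 and 635 with toyocamycin. It rose 5.62-fold (log2 change 2.48, SE 0.13, adjusted p = 3.44e-13). Plk3, its close relative, had 2044, 2291 and 2484 in Control and 1319, 1336 and 1270.1 with toyocamycin, and was 1.74-fold lower (log2 change −0.79, SE 0.071, adjusted p = 2e-09). The log2 ratio of Plk2 to Plk3 was −4.33 ± 0.19 in Control and −1.06 ± 0.11 with toyocamycin, a difference of 3.27, the widest of the 4. Trp53inp1, a nuclear protein that assists p53 in apoptosis and autophagy, had 3249, 3390.3 and 3365 in Control and 5881, 6252 and 6086 with toyocamycin. It rose 1.82-fold (log2 change 0.86, SE 0.052, adjusted p = 2.69e-12). Trp53inp2, known for a role in autophagosome formation, had 906, 899.6 and 873 in Control and 316, 311 and 351 with toyocamycin. It fell 2.74-fold (log2 change −1.45, SE 0.093, adjusted p = 8.19e-12), and the log2 ratio of the pair was 1.90 ± 0.053 in Control and 4.22 ± 0.11 with toyocamycin, a difference of 2.32.

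In the other two pairs both genes rose. Sesn1 (chromosome 10, 41810574 to 41908436), the classical p53-induced sestrin, had normalised read counts of 1126, 1261 and 1121 in Control and 3295, 3646 and 3069.5 with toyocamycin. It rose 2.85-fold (log2 change 1.51, SE 0.071, adjusted p = 4.48e-14). Sesn3, which is known as a target of FOXO factors, had 2185, 2298 and 2142 in Control and 3336, 3693 and 3465 with toyocamycin, and rose 1.58-fold (log2 change 0.66, SE 0.058, adjusted p = 1.69e-09). The log2 ratio of Sesn1 to Sesn3 was −0.92 ± 0.047 in Control and −0.07 ± 0.091 with toyocamycin, a difference of 0.85. Mdm2 and Mdm4, whose values are given above, had a log2 ratio of 0.48 ± 0.11 in Control and 1.24 ± 0.079 with toyocamycin, a difference of 0.75. With 1 sample left out these differences ran from 0.71 to 0.81 for Mdm2 and Mdm4, from 0.82 to 0.90 for the sestrins, from 2.26 to 2.37 for the Trp53inp pair and from 3.16 to 3.33 for the polo-like kinases.

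**Figure D3:**
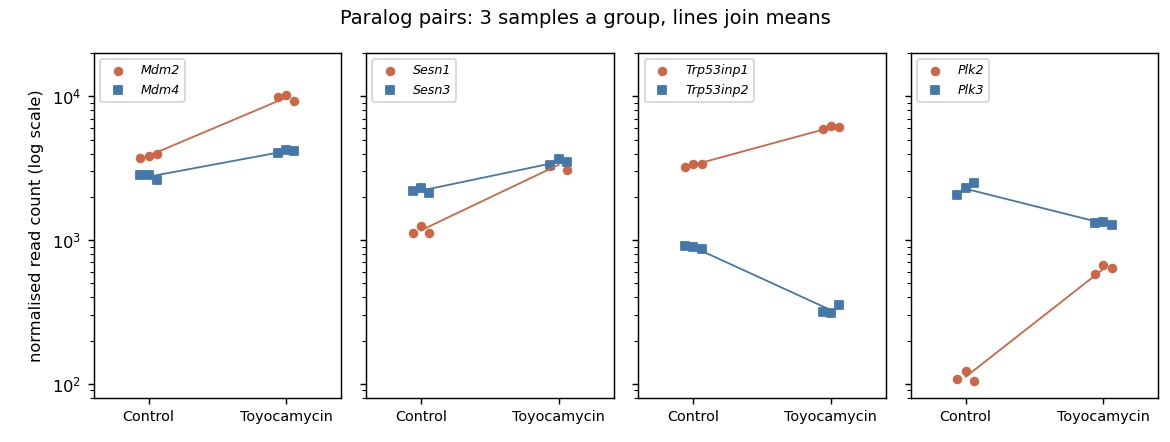
Normalised read counts on a log scale (y axis) of both genes of each pair in 3 Control and 3 toyocamycin samples, with lines joining group means. Values are not divided by gene length, so the slopes and not the heights of 2 genes can be compared: Plk2 and Plk3, and Trp53inp1 and Trp53inp2, go in opposite directions.

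Per kilobase of exon (union of the GENCODE M21 basic exons), the members spanned a wide range of levels in Control. Ccng1 had the highest level, 2644 normalised reads per kilobase, followed by Trp53 (1843), Cdkn1a (1311) and Mdm2 (1228). Gdf15 had the lowest (1.60), followed by Eda2r (12.0), Perp (17.2), Ephx1 (32.7) and Plk2 (40.0). Perp, Eda2r and Plk2, 3 of the 4 members with the largest log2 change, thus started near the bottom of this order, while Zmat3 started at 291 per kilobase. With toyocamycin the levels of Ccng1 (3900.2), Trp53 (3655), Mdm2 (3117) and Cdkn1a (2828) were still the highest per kilobase. Replicates were close: the median coefficient of variation of the members was 6.49% in Control and 5.20% with toyocamycin.

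Other genes of the pathway, from lists chosen beside the members, did not move in 1 direction. Over all genes tested, 32.8% were higher and 33.1% lower, with a median log2 change of −0.03. Of 30 further p53 targets, 14 were higher, 12 lower and 4 not called (median log2 change 0.25; with equal totals 13 higher, 14 lower and a median of −0.10). After GC and length correction 16 were higher and 8 lower (median 0.46), and with quantile normalization 15 and 11 (median 0.35). Without toyocamycin replicate 3 that median was 0.01, and without Control replicate 2 it was 0.07. The pro-apoptotic gene Pmaip1 (NOXA) had 680.3 ± 79.7 in Control and 4156 ± 290.2 with toyocamycin, a log2 change of 2.61, and Gadd45a, a stress sensor of growth arrest, had 45.6 ± 7.76 in Control and 298 ± 10.6 with toyocamycin, a log2 change of 2.70. Bax, the pore-forming partner that BBC3 releases, was lower (−0.46), as was the antiproliferative gene Btg2 (−1.33). The thiamine transporter gene Slc19a2 (2.79) and the ferrireductase gene Steap3 (−2.70) also had changes among the 4 of greatest size in that list. Of 24 kinases, cofactors and relatives of p53, 11 were higher, 10 lower and 3 not called (median 0.22; with equal totals 10 higher, 11 lower and a median of −0.13). After GC and length correction 11 were higher and 7 lower (median 0.30), with quantile normalization 10 and 10 (median −0.07), and with a minimum mean of 10 the median was 0.00164. Cdkn2a, whose ARF product inhibits MDM2, had 102 ± 17.9 in Control and 10.6 ± 10.1 with toyocamycin (−3.52). The p53 relative Trp73 (−3.50) and the DNA damage kinase gene Prkdc (−3.30) were lower, and the acetyltransferase gene Crebbp was higher (2.51).

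Most calls of the members held under other scalings and tests. Of the 29 called members, 26 kept their call and direction in all 16 alternatives, and Fas, Apaf1 and Ercc5 did not. GC content differed with direction: the median GC content of the longest transcript was 48.0% in the 20 higher and 52.6% in the 9 lower members, against 47.6% and 51.4% in all higher and lower genes. Its part in the changes was not tested beyond the correction, after which 20 members were higher and 10 lower, with a median log2 change of 0.39 against 0.07 for all genes.

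**Figure D4:**
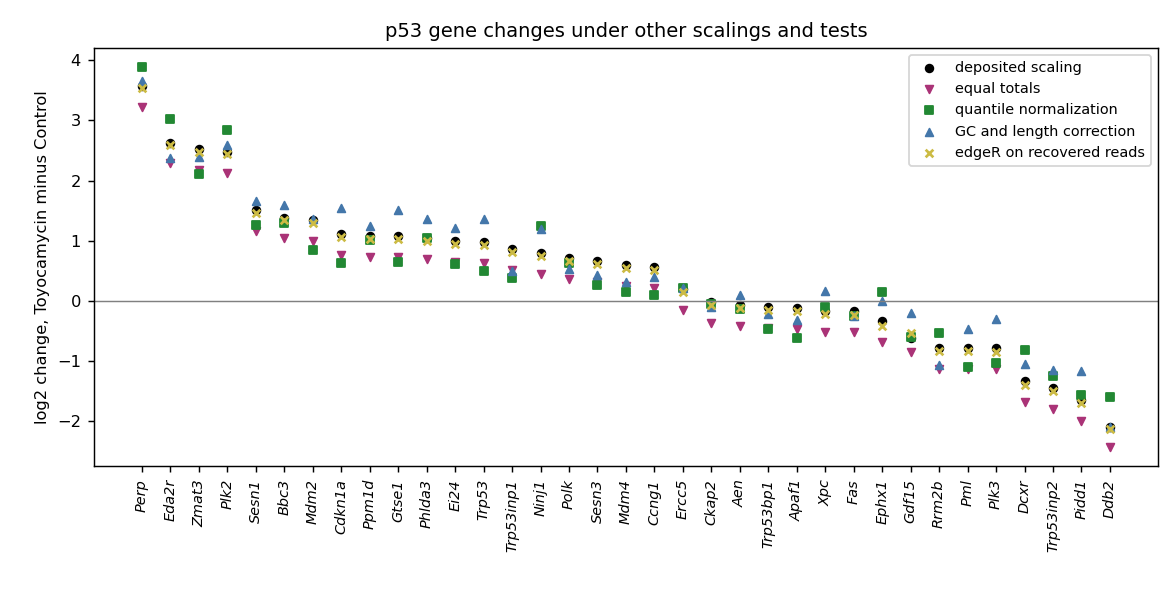
Log2 change (y axis) of the 35 p53 genes, in order of the value with the deposited scaling (black), beside 4 alternatives. Genes at both ends keep their sign in all 5, while Ercc5, Ephx1, Xpc and Aen cross 0 in at least 1.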

How the data were processed

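RNA sequencing of 3 Control and 3 toyocamycin samples was available as 1 deposited table of 25865 genes. The authors used cutadapt 4.7, FastQC and the mouse build mm10, per the submitters' processing notes, with aligner, counting program and strand setting not given in the sources used here. Although named for FPKM, the deposited file holds other values: its signal values are whole reads divided by 1 size factor per sample (100% whole in each sample, tolerance 0.01 reads), called normalised read counts here. Recovered totals were 22303455 to 36742639 reads per sample, and 3 reads, taken as the floor, correspond to 2.66 in Control and 3.38 with toyocamycin. Columns were matched to samples by group letter and replicate number.

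Genes with a mean of at least 1 were tested as log2(value + 1) with limma 3.58.1 (mean-variance trend, R 4.3.3), two-sided, Benjamini-Hochberg adjusted over 16223 genes, threshold 0.05. A fold is the ratio of the group means, and the log2 changes understate the change of low genes. The fit was also run on simulated data in which few genes changed, unlike these data, so that run does not test the calls made here. No 2 samples of a group were alike within sampling noise (chi-square over degrees of freedom, 3.87 to 7.39), so each counted as 1 replicate. Alternatives covered scaling, pseudocount, filter, edgeR 4.0.16 and DESeq2 1.42.0 on recovered reads, GC and length correction (values for 90.6% of genes), a replicate block and leaving out each sample. The members and lists were chosen with earlier results of these data known. Values in every sample are given for members called with at least a 2-fold change, for Trp53 and for paralog pairs, and the lists' examples are the 4 of greatest size plus Bax, Pmaip1, Btg2 and Gadd45a; 1 such example is not reported here. Coordinates are from RefSeq GRCm38.p6, the same assembly as mm10.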

Additional observations from a re-analysis of the deposited data

How the results depend on the processing

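The counts of members called stayed within 1.5 times of 20 higher and 9 lower in all 16 alternatives, and so did those of all genes and of the other p53 targets. The median log2 change of the members (0.59) was 0.39 after GC and length correction, 0.24 with equal totals, 0.54 with edgeR, 0.22 with quantile normalization and 0.63 with a minimum mean of 10; with 1 sample left out it ran from 0.55 to 0.61. The median stayed above that of all genes in each alternative, by 0.19 with quantile normalization to 0.66 with a minimum mean of 10. The 2-fold counts, added as a result after seeing the data, were 6 higher and 7 lower with equal totals (all genes, 10.9% and 27.3%), 14 and 5 after GC and length correction, 9 and 5 with quantile normalization, and 10 to 13 and 4 in the others.

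Signs turned in 6 members, of which Ercc5 (0.19) was the called one: it was −0.16 with equal totals. Ckap2 (−0.03) ran from −0.086 to 0.071, Aen (−0.07) from −0.1221 to 0.0055 and Gdf15 (−0.62) from −1.016 to 0.051 with 1 sample left out. Aen was 0.10, Xpc 0.16 and Ephx1 0.00356 after GC and length correction, and Ephx1 was 0.14 with quantile normalization. The cause was not tested. The calls lost in Fas and Apaf1 are given with their values above.

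Deviations of same-numbered samples from their group means had correlations of −0.04 to 0.02. Those of differently numbered samples ran from −0.0857 to 0.0808. The labels do not say whether the numbers pair the samples, and correlations this small cannot decide it. With the replicate block 20 members were higher and 8 lower; the lost call was that of Fas (−0.18, adjusted p = 0.0545). Depth limits Gdf15, which had at most 4 reads in a sample. The 95% intervals of Gdf15 and Ephx1 were the widest of the set.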
